A study of Mus musculus with 26 samples.

Results

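The genes described here are 10 transcriptional targets of the tumor suppressor p53: Cdkn1a, Mdm2, Ccng1, Eda2r, Perp, Phlda3, Trp53inp1, Zmat3, Btg2 and Tnfrsf10b. They were taken by name, as every probe set whose single gene symbol is one of these 10, which gave 17 of the 45037 probe sets tested and 10 of the 17097 genes with a probe set of their own. All 26 arrays came from C57BL/6 mouse cells or tumors whose labelled genotype lacks both Trp53, the gene of p53, and Cdkn2c, the gene of the cell-cycle inhibitor p18Ink4c. The question was therefore at what level p53 targets were measured in cells without p53, whether that level differed between the models, and whether it moved with drug treatment. Medulloblastoma is a tumor of the cerebellum, and Group3 is its subgroup that often carries high MYC.

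The arrays fall into 2 sets, which differ by the letters dka or mmm in their titles. Under dka there were 3 secondary Group3 tumors, 3 primary Group3 tumors, 3 neurosphere samples of Group3 medulloblastoma cells and 3 samples of Trp53-/-, Cdkn2c-/- neurospheres. Under mmm there were 3 Group3 tumors given pemetrexed and gemcitabine together, 3 given gemcitabine, 2 given pemetrexed, 2 untreated Group3 tumors and 4 Group3 neurosphere samples. Every Group3 sample, treated or not, is labelled Trp53-/-, Cdkn2c-/- with Myc, and the Trp53-/-, Cdkn2c-/- neurospheres carry no Myc label. Those neurospheres are labelled as granule neural progenitors, and the design text places the neurospheres at P7. The Group3 neurospheres are floating cultures of tumor cells, so the comparison with the Trp53-/-, Cdkn2c-/- neurospheres differs in the Myc label and in the labelled kind of cell. No dose, treatment time or age of tumor-bearing mouse was given, and neither was the way in which Myc was introduced, how many clones or animals stand behind a group, or what the secondary tumors were grown from. Gemcitabine is a nucleoside analogue and pemetrexed an antifolate, and both disturb DNA synthesis.

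p53 is a DNA-binding transcription factor that accumulates after DNA damage and other stress. It binds paired copies of a short palindromic motif near its target genes and raises their transcription, which arrests the cell cycle, repairs DNA or starts cell death. Most of its targets can also be transcribed through other factors, and the related proteins p63 and p73 recognise the same motif. Mdm2 marks p53 for degradation and Ccng1, cyclin G1, acts in the same negative feedback. Cdkn1a, or p21, inhibits cyclin-dependent kinases, and Btg2 is an antiproliferative cofactor of mRNA deadenylation that also responds to growth signals as an early response gene. Eda2r is a receptor for ectodysplasin A2 and Tnfrsf10b is the mouse receptor for the death ligand TRAIL, both of the tumor necrosis factor receptor family. Perp is a membrane protein of desmosomes and of apoptosis, Phlda3 is an inhibitor of Akt, Trp53inp1 is a stress protein of apoptosis and autophagy, and Zmat3 is an RNA-binding zinc-finger protein.

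A match to the p53 half-site consensus was found in 3 promoter windows of these genes, which are shown for the letters of the motif. Promoter windows from 250 bases before to 50 bases after an annotated transcript start were available from RefSeq (GRCm38.p6) for 6 of the 10 genes, in 7 windows. The 10-base p53 half-site consensus, which is its own reverse complement, was searched on both strands. It occurred in 3 of the 7 windows of these genes and in 8.36% of all 32851 windows. Each sequence below is given 5′ to 3′ on the strand of the gene and ends before the transcript start, with the match in capitals; Cdkn1a lies at chr17:29090879-29090978 (+), Mdm2 at chr10:117710910-117710969 (-) and Ccng1 at chr11:40755437-40755496 (-).
Cdkn1a: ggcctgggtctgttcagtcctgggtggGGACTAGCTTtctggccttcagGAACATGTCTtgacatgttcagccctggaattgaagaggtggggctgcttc
Mdm2: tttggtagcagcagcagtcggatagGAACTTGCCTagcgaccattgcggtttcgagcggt
Ccng1: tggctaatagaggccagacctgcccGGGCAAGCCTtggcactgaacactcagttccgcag

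The Cdkn1a window held 2 exact matches to the half-site, whose first bases stand 73 and 51 bases before the start, with 12 bases between them. The search took exact matches only. The 10 bases directly after the second match depart from the consensus at their first base only, and they were not counted or marked. The 12-base spacing therefore describes the exact matches and not the closest pair of similar motifs. A pair of exact matches with a spacer of at most 13 bases occurred in 0.0731% of all windows. A second annotated Cdkn1a start, 2790 bases downstream, had no match in its window. The windows of Btg2, Phlda3 and Eda2r had none either, and no window was at hand for Perp, Trp53inp1, Zmat3 and Tnfrsf10b. A match describes the letters in the window and says nothing about binding in these cells.

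The values are log2 intensities summarised per probe set, so levels are compared within a probe set and not between genes. Trp53 itself was not analysed here. Cdkn2c lay between 3.28 and 4.8 on the 26 arrays, beside array medians of 4.65 to 4.82. Atoh1, a granule progenitor marker, lay between 9.0 and 10 in the Trp53-/-, Cdkn2c-/- neurospheres and between 3.47 and 3.99 in the dka Group3 neurospheres, so the labelled progenitors had their marker. The Myc label was not matched by the 1 Myc probe set, which averaged 7.99 ± 0.26 in dka Group3 neurospheres and 8.43 ± 0.55 in Trp53-/-, Cdkn2c-/- neurospheres (SD, n = 3 each), with overlap. The 3 Mycn probe sets went in opposite directions, at means of 12.7, 4.64 and 3.66 in dka Group3 neurospheres and 4.59, 11.5 and 7.47 in Trp53-/-, Cdkn2c-/- neurospheres. Whether these probe sets can read the Myc of the labels was not tested. The 2 title codes do not share a scale: dka arrays ran from 2.56 to 13.9, whereas mmm arrays other than neurosphere replicate 7 ran from -0.41 to 16.1. That replicate ran from 2.64 to 13.7, like the dka arrays, and stands apart from the rest of its code. Mean values of mmm neurosphere replicates 4 to 6 differed from the dka Group3 neurosphere means with an SD over probe sets of 0.13. The same SD was 0.87 for the means of untreated tumors. The closest single arrays had a root mean square difference of 0.29, which is not a like measure because averaging arrays lowers such a difference. The processing notes name no step that gives this range or the close neurosphere means. Whether mmm values were adjusted after summarisation is not given in the sources used here, and mmm differences are on the scale as deposited. Group means were therefore compared within a code, with limma over all probe sets and Benjamini-Hochberg adjustment at 0.05. All 26 arrays entered the fit and shared 1 estimate of the spread per probe set. Each SE and p within a code therefore also draws on the spread of the other code, and its unequal scale. The 1 test between codes subtracts a difference within dka from one within mmm, so its size carries the unequal scales. Tests that use mmm neurospheres are also given without replicate 7.

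**Figure D1:**
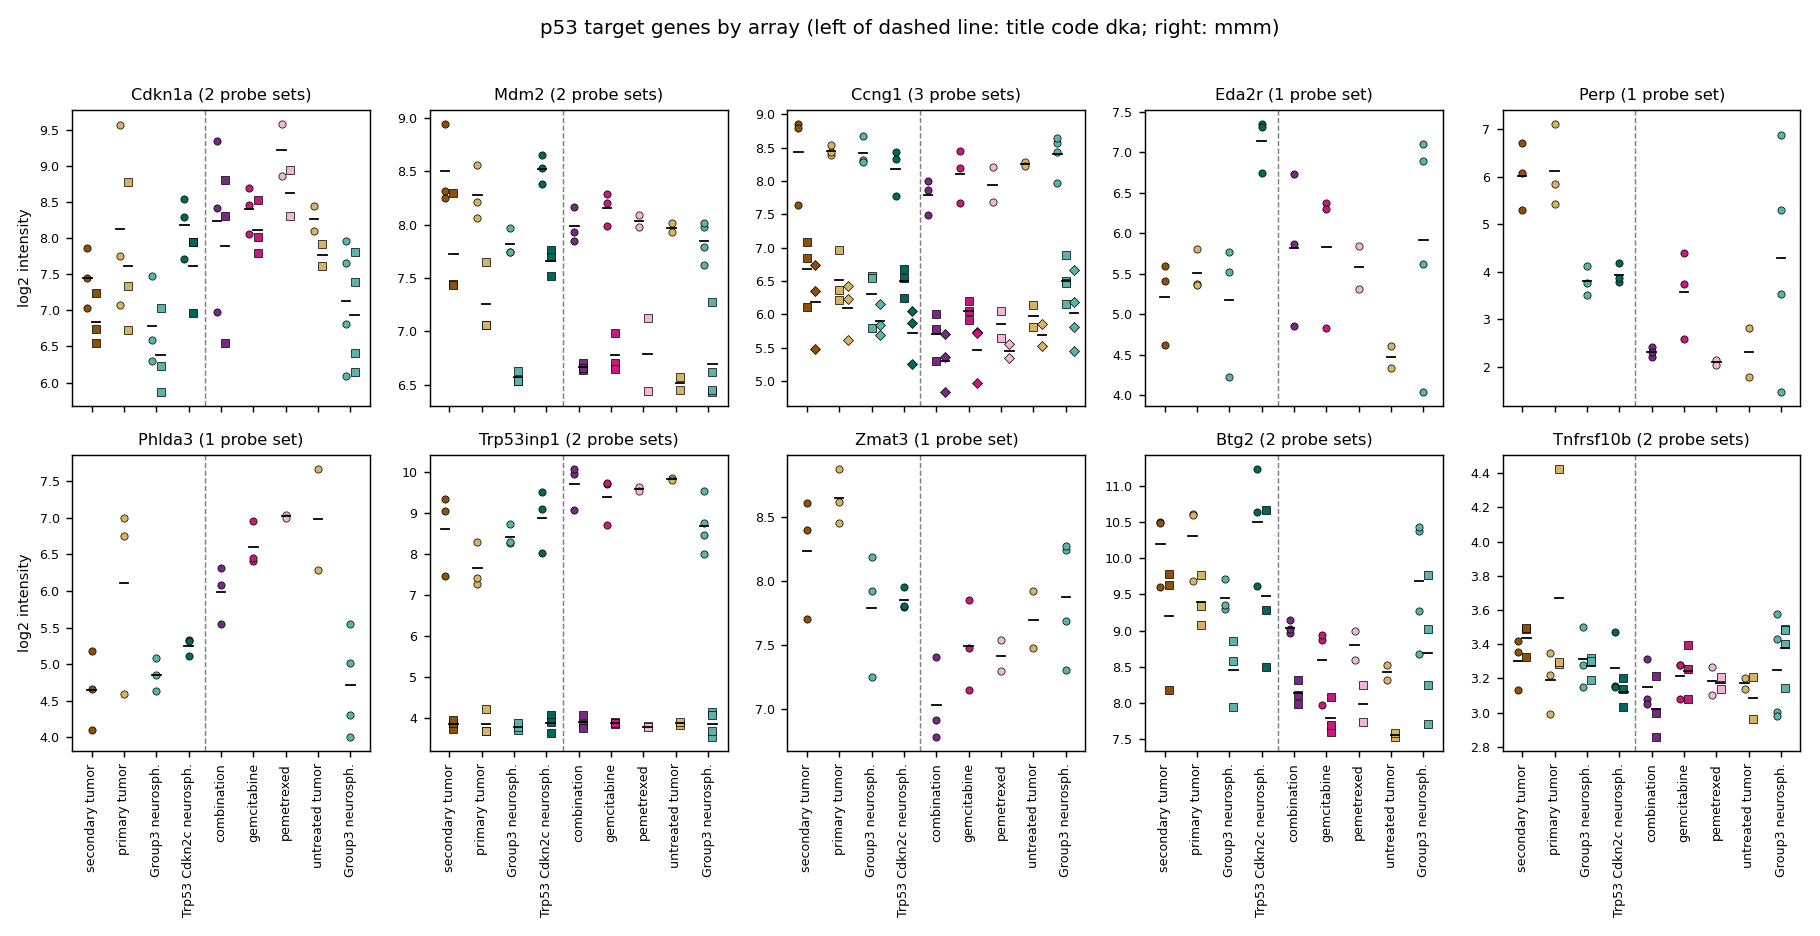
Log2 intensity of the 10 genes on every array (vertical axis), by group (horizontal axis), with title code dka left of the dashed line and mmm right of it. Each point is 1 array, marker shapes separate the probe sets of a gene, and short bars are group means. Eda2r stands high in the Trp53-/-, Cdkn2c-/- neurospheres and reaches 7.10 in mmm neurospheres. Mdm2 stands high in the Trp53-/-, Cdkn2c-/- neurospheres and the secondary tumors, with means of 8.52 and 8.50 on its brighter probe set. Phlda3 stands high in mmm tumors, and Perp is spread over 1.46 to 6.87 in mmm neurospheres.

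Without p53, 9 of the 10 genes were still measured well above the array medians in at least part of the samples. The level of Cdkn1a, on its brighter probe set, ranged from 6.10 to 9.58, and Mdm2 from 7.62 to 8.94. Btg2 reached 11.2 and Trp53inp1 reached 10.1 on their brighter probe sets. Tnfrsf10b, the TRAIL receptor, lay below the array medians on both probe sets and all arrays, between 2.86 and 4.43, so its changes could not be followed. The second Trp53inp1 probe set lay between 3.52 and 4.21 and is just as dim.

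The first comparison set the Group3 neurospheres, labelled with Myc, against the Trp53-/-, Cdkn2c-/- neurospheres. Mdm2 and Eda2r were lower in the Group3 neurospheres, and no probe set of the 10 genes rose. Of the 17 probe sets 3 passed the test, all lower, where 20.1% of all probe sets passed and 10.4% were lower. An unadjusted p under 0.05 was found for 6 of the 17 and for 30.7% of all probe sets. The median difference over the 17 probe sets was -0.39 on the log2 scale, beside 0.04 over all probe sets.

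Mdm2 had log2 levels of 7.75, 7.97 and 7.74 in Group3 neurospheres, against 8.53, 8.65 and 8.38 in Trp53-/-, Cdkn2c-/- neurospheres, on probe set 1423605_PM_a_at. On 1427718_PM_a_at the levels were 6.54, 6.63 and 6.54 in Group3 neurospheres, against 7.51, 7.77 and 7.69 in Trp53-/-, Cdkn2c-/- neurospheres. Every Group3 array was below every other neurosphere array on both probe sets. The differences were -0.70 (SE 0.17, limma adjusted p = 0.00535) and -1.09 (SE 0.24, limma adjusted p = 0.00258), and both passed when any single array of the comparison was left out. Mdm2 was the only one of the 10 genes whose probe sets passed in this comparison under all 6 such omissions.

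Eda2r, the ectodysplasin receptor, had log2 levels of 4.22, 5.52 and 5.77 in Group3 neurospheres, against 6.74, 7.35 and 7.31 in Trp53-/-, Cdkn2c-/- neurospheres. The groups did not overlap, and Group3 replicate 1 was the lowest by more than 1 log2 unit. The difference was -1.97 (SE 0.64, limma adjusted p = 0.0331). It missed the threshold without Group3 replicate 1 (-1.49, adjusted p = 0.162) and without replicate 2 or 3 of the other group (adjusted p = 0.0960 and 0.0887), over a range of 0.0367 to 0.162 when single arrays were left out.

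The cell-cycle genes Cdkn1a and Btg2 had lower means too, without passing the test. Cdkn1a measured 6.59, 6.29 and 7.47 in Group3 neurospheres, against 8.29, 8.54 and 7.70 in Trp53-/-, Cdkn2c-/- neurospheres. The groups did not overlap on this brighter probe set, and the difference was -1.40 (SE 0.60, limma adjusted p = 0.112). Its other probe set gave -1.24 (limma adjusted p = 0.134) and overlapped, with Group3 replicate 3 at 7.03 and replicate 3 of the other group at 6.97. Btg2 measured 9.71, 9.30 and 9.35 in Group3 neurospheres, against 9.62, 11.24 and 10.64 in Trp53-/-, Cdkn2c-/- neurospheres, which overlapped through 1 array. Its difference was -1.04 (SE 0.44, limma adjusted p = 0.104), and it passed without that array, replicate 1 of the Trp53-/-, Cdkn2c-/- group (-1.48, adjusted p = 0.0296). Over its 11 other settings the adjusted p ran from 0.0296 to 0.393. Of the 17 probe sets, 5 did not overlap between the groups, all lower, where 38.5% of all probe sets did not overlap.

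Other cell types and states moved with this comparison. Of 12 microglia and macrophage markers, 9 were lower, with mean levels of 3.89 to 4.05 in Group3 neurospheres and 6.33 to 6.94 in Trp53-/-, Cdkn2c-/- neurospheres. Of 9 measured immediate early genes, the family to which Btg2 belongs by its kinetics, 6 were lower, at 7.57 to 8.30 in Group3 neurospheres and 9.74 to 11.1 in Trp53-/-, Cdkn2c-/- neurospheres. Of 6 measured granule progenitor markers 5 were lower, of 10 neuron markers 6 and of 10 proliferation markers 3. Astrocyte and stem cell markers went the other way, with 4 of 8 higher and 0 lower. Their mean levels were 8.30 to 8.62 in Group3 neurospheres and 6.30 to 6.97 in Trp53-/-, Cdkn2c-/- neurospheres. Of 7 measured oligodendrocyte markers 2 were higher and 0 lower. By the same test 13.1% of all genes were higher and 9.04% lower. The part of these differences in the Mdm2 and Eda2r results was not tested. In bulk samples, fewer cells of a type and less RNA per cell cannot be told apart.

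Primary Group3 tumors of the dka code were then set against Group3 neurospheres, the same labelled cells outside the animal. No probe set of the 10 genes passed limma at 0.05, where 13.8% of all probe sets did, and 7 had an unadjusted p under 0.05, as did 25.9% of all probe sets. Of the 17 differences 15 were positive, with a median of 0.46 beside 0.01 over all probe sets. In 5 probe sets every tumor array was above every neurosphere array, where 30.8% of all probe sets did not overlap.

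Zmat3, the RNA-binding protein, came closest. It had log2 levels of 8.62, 8.88 and 8.45 in tumors, against 8.19, 7.92 and 7.25 in neurospheres. All 3 tumors were above all 3 neurosphere samples, the difference was 0.86 (SE 0.29) and the limma adjusted p was 0.0503. Without neurosphere replicate 1 the difference was 1.06 and passed (adjusted p = 0.0323), within a range of 0.0271 to 0.248 over 11 other settings.

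Perp, the desmosome and apoptosis protein, had log2 levels of 7.11, 5.85 and 5.42 in dka tumors, against 3.77, 3.51 and 4.12 in neurospheres. The tumors were above the array medians and the neurospheres below them. The difference was 2.32 (SE 0.85, limma adjusted p = 0.0796). With only dka arrays in the fit its SE was 0.43 and it passed (limma adjusted p = 0.00513), as it did with quantile normalization (limma adjusted p = 0.0450). Over 10 other settings it passed in 2, within a range of 0.00513 to 0.272. Mdm2 had levels of 8.06, 8.21 and 8.56 in tumors and 7.75, 7.97 and 7.74 in neurospheres on probe set 1423605_PM_a_at, without overlap. Its differences were 0.46 (limma adjusted p = 0.0818) and 0.69 (limma adjusted p = 0.0632) on its 2 probe sets. The first passed in 2 of 11 other settings (limma adjusted p from 0.0344 to 0.301) and the second in 3 of 10 (0.0319 to 0.250). Both passed with quantile normalization and with array weights. Cdkn1a measured 7.75, 9.56 and 7.07 in tumors, against 6.59, 6.29 and 7.47 in neurospheres, so that the groups overlapped and tumor replicate 2 stood highest. The means on this brighter probe set were 8.13 (SD 1.29) in tumors and 6.78 (SD 0.61) in neurospheres. On its other probe set they were 7.61 and 6.38, also with overlap, and neither difference passed.

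Phlda3, the Akt inhibitor, measured 4.59, 7.0 and 6.76 in dka tumors, against 4.63, 5.09 and 4.86 in neurospheres. Tumor replicate 1 lay below all neurosphere samples and the other 2 tumors above them. The difference was 1.26 (SE 0.50, limma adjusted p = 0.106). Without replicate 1 it was 2.02 and passed (adjusted p = 0.00368), within a range of 0.00368 to 0.388 over 11 other settings.

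The mmm code repeats the comparison with 2 untreated tumors and 4 neurosphere samples. Phlda3 was the only one of the 17 probe sets to pass, where 17.5% of all probe sets did and 8.1% were higher. An unadjusted p under 0.05 was found for 6 of the 17 and for 30.3% of all probe sets. Its log2 levels were 7.67 and 6.29 in tumors, against 4.31, 5.54, 5.01 and 4.0 in neurospheres. Both tumors were above all neurosphere samples, and both were on the bright side of the array medians. The difference was 2.26 (SE 0.53, limma adjusted p = 0.00555), and it was 2.02 (adjusted p = 0.0175) without neurosphere replicate 7. Without tumor replicate 4, which leaves 1 tumor assumed to vary like the other groups, it was 1.57 and did not pass (adjusted p = 0.172), the highest value over 11 other settings, of which the lowest was 0.00109.

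The other genes did not share that direction in mmm. Over the 17 probe sets the median difference was -0.18, beside -0.06 over all probe sets, and of the 6 probe sets whose groups did not overlap, 3 were higher and 3 lower in tumors (40.4% of all probe sets did not overlap). Without neurosphere replicate 7 Phlda3 was still the 1 probe set called. Btg2 measured 8.53 and 8.32 in tumors, against 8.68, 9.27, 10.38 and 10.43 in neurospheres. Both tumors were below every neurosphere sample, and the difference was -1.27 (SE 0.46, limma adjusted p = 0.0652). Without neurosphere replicate 4 it passed (-1.61, adjusted p = 0.0147), and without replicate 7 it was -1.02 (adjusted p = 0.167), within a range of 0.00258 to 0.306.

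Eda2r measured 4.61 and 4.33 in mmm tumors, against 4.03, 5.61, 7.10 and 6.89 in neurospheres. Its groups overlapped through neurosphere replicate 4. The difference was -1.44 (SE 0.67, limma adjusted p = 0.155) and passed without that array (-2.06, adjusted p = 0.0159), within a range of 0.00532 to 0.458 over 11 other settings, and was -1.11 (adjusted p = 0.329) without replicate 7. Cdkn1a measured 8.09 and 8.44 in mmm tumors, against 7.65, 7.96, 6.81 and 6.10 in neurospheres. These values are from its brighter probe set, where both tumors were above all neurosphere samples in mmm. The difference was 1.14 (SE 0.63, limma adjusted p = 0.238), or 0.79 (limma adjusted p = 0.473) without neurosphere replicate 7. On the other Cdkn1a probe set the groups overlapped. It measured 7.61 and 7.92 in tumors, against 7.80, 7.39, 6.41 and 6.15 in neurospheres.

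Trp53inp1 measured 9.85 and 9.80 in mmm tumors, against 7.98, 8.46, 9.53 and 8.75 in neurospheres, and 8.28, 7.27 and 7.41 in dka tumors, against 8.26, 8.71 and 8.28 in dka neurospheres. It was above every neurosphere sample in mmm, and in dka the tumor range lay lower with an overlap. The differences were 1.14 (SE 0.50, limma adjusted p = 0.129) and -0.77 (SE 0.48, limma adjusted p = 0.344). Without mmm neurosphere replicate 7 the mmm difference was 1.17 (adjusted p = 0.177). Ccng1, cyclin G1, showed small differences between tumors and neurospheres on its brightest probe set. They were 0.03 in dka (limma adjusted p = 0.968) and -0.15 in mmm (limma adjusted p = 0.788), or -0.14 (limma adjusted p = 0.838) without replicate 7. On its probe set 1450016_PM_at both mmm tumors (6.14 and 5.81) were below all neurosphere samples (6.15 to 6.88). That difference did not pass, and without replicate 7 it was -0.39 (limma adjusted p = 0.441).

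**Figure D2:**
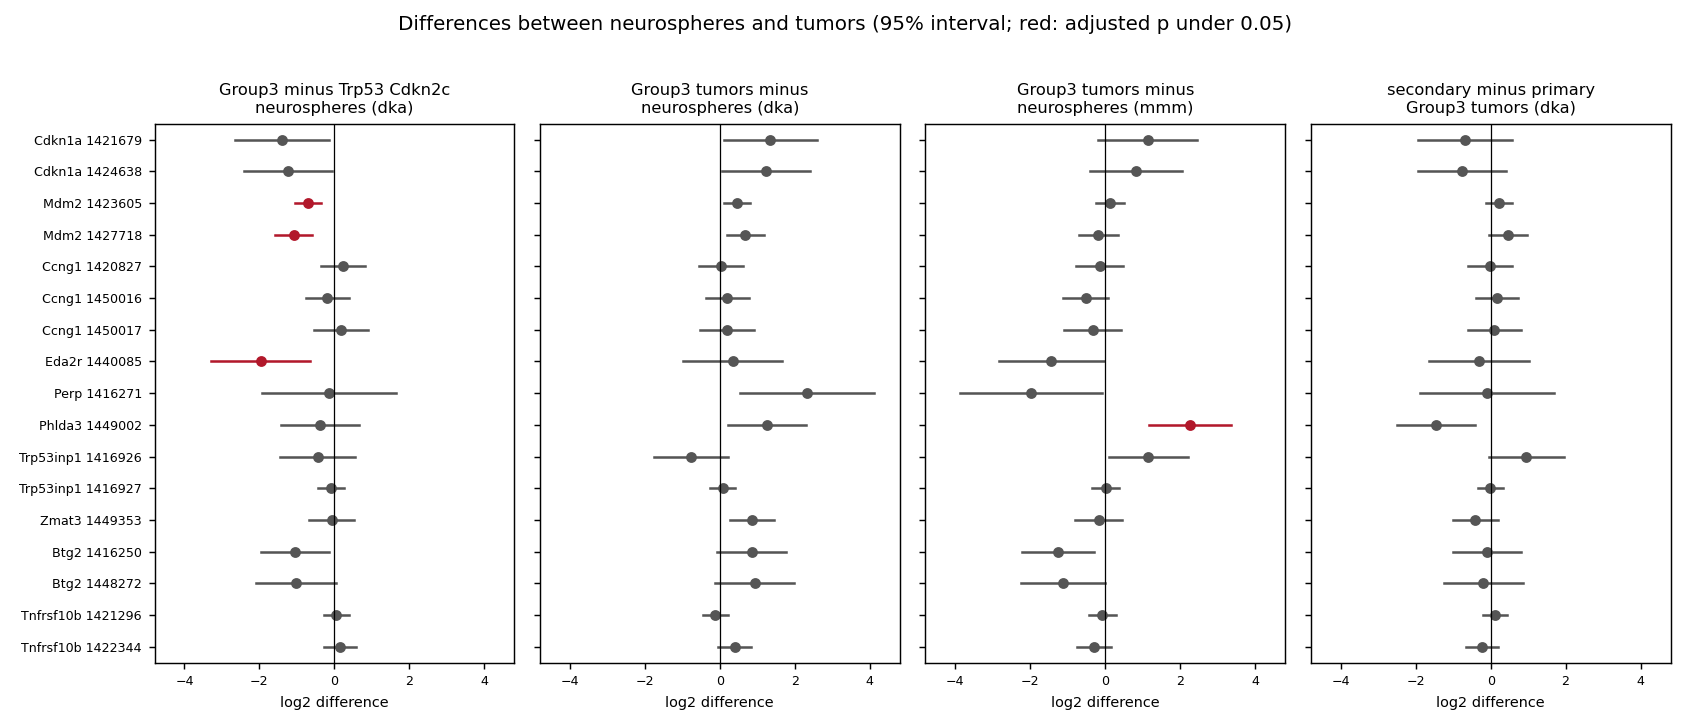
Difference in log2 intensity (horizontal axis) of each of the 17 probe sets (rows) in 4 comparisons, with 95% intervals from limma. Red marks adjusted p under 0.05: Mdm2 on both probe sets and Eda2r between the neurospheres, and Phlda3 between mmm tumors and neurospheres. Perp lies at 2.32 in dka and at -1.98 in mmm.

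Perp was the 1 gene of the 10 to pass the test of a tumor difference between codes, without keeping the call when most single arrays were left out. It measured 1.79 and 2.82 in mmm tumors, against 6.87, 5.30, 1.46 and 3.53 in mmm neurospheres, so its groups overlapped there. The neurosphere samples alone held both the highest and the lowest of these values. The mmm difference was -1.98 (SE 0.91, limma adjusted p = 0.144), or -2.24 (adjusted p = 0.139) without neurosphere replicate 7, and subtracting the dka difference of 2.32 gave -4.31 (SE 1.25, limma adjusted p = 0.0446), where 6.35% of all probe sets passed this test and 3.36% were lower. An unadjusted p under 0.05 was found for 7 of the 17 and for 23% of all probe sets. It passed in 3 of 12 fits with an array left out, over a range of 0.00327 to 0.195, and without neurosphere replicate 7 it was -4.56 (adjusted p = 0.0542). It did not pass when only untreated tumors and Group3 neurospheres were fitted (adjusted p = 0.157). Without neurosphere replicate 6, the lowest of its group, the mmm difference was -2.93 and passed (adjusted p = 0.00726), within a range of 0.00726 to 0.548. The next gene by this test was Btg2, whose tumor difference in mmm minus that in dka was -2.11 (limma adjusted p = 0.0519). It passed without dka tumor replicate 2 (-2.42, adjusted p = 0.0454) or mmm neurosphere replicate 4 or 5 (adjusted p = 0.0200 and 0.0419), within a range of 0.0100 to 0.183 over 17 other settings. Several mmm values of Perp lie under 2.56, the lowest value on any dka array, so the size of its difference between codes rests on dim values and on scales that differ.

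Markers of other cell types also differed between tumors and neurospheres. In dka, 9 of 12 microglia and macrophage markers were higher in tumors (mean levels 6.51 to 7.01) than in neurospheres (3.89 to 4.05), and in mmm all 12 were (8.24 to 8.37 and 3.86 to 4.11). Of 10 endothelial markers 8 were higher in tumors under each code, and of 10 neuron markers 7 in dka and 8 in mmm. Of 8 astrocyte and stem cell markers 4 were lower and 0 higher in dka tumors, with a median of -2.75, and 2 were higher and 2 lower in mmm tumors. Immediate early genes went the other way in mmm, where 5 of 9 were lower, at 5.33 to 5.51 in tumors and 6.92 to 8.53 in neurospheres, while 2 of 9 were higher in dka. Of 10 proliferation markers 2 were higher and 0 lower in dka tumors, and 0 were higher and 4 lower in mmm tumors. Of 8 fibroblast, pericyte and matrix markers 7 were higher in dka and 4 in mmm, with 0 lower. By the same test 8.21% of all genes were higher and 9.12% lower in dka, and 9.99% and 11% in mmm. The part of these markers in the values of Phlda3, Perp and Btg2 was not tested.

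Secondary tumors were compared with primary tumors under dka. No probe set of the 10 genes passed limma, where 2.28% of all probe sets did, and 1 had an unadjusted p under 0.05, as did 13.9% of all probe sets. That one was Phlda3, with log2 levels of 5.18, 4.10 and 4.66 in secondary tumors, against 4.59, 7.0 and 6.76 in primary tumors. The groups overlapped through primary tumor replicate 1. The difference was -1.47 (SE 0.50, limma adjusted p = 0.156), and without that tumor it was -2.23 (adjusted p = 0.00559), within a range of 0.00559 to 0.449. None of the 17 probe sets separated the groups, where 19.2% of all probe sets did. Perp was nearly level at 5.30, 6.07 and 6.70 in secondary tumors and 7.11, 5.85 and 5.42 in primary tumors, a difference of -0.10 with a 95% interval of -1.89 to 1.68.

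The drug comparisons ask whether the p53 program responds to drugs that disturb DNA synthesis in tumors without p53. No probe set of the 10 genes passed limma after the combination, gemcitabine or pemetrexed against untreated tumors, and none had an unadjusted p under 0.05. The backgrounds were low too, with 0.0688%, 0.00888% and 0.00444% of all probe sets called, and 7.41%, 8.35% and 4.38% at the unadjusted level. The smallest adjusted p among the 17 was 0.675 for the combination, 0.639 for gemcitabine and 1.0 for pemetrexed. Median differences were -0.02, 0.14 and 0.04, beside 0.03, 0.06 and 0.05 over all probe sets.

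Cdkn1a, the classical read-out of p53 activity, measured 8.41, 9.34 and 6.98 after the combination, 8.46, 8.05 and 8.70 after gemcitabine and 9.58 and 8.86 after pemetrexed, against 8.09 and 8.44 in untreated tumors. Both pemetrexed tumors were above both untreated ones, and the other treated groups overlapped with them. The differences were -0.03 for the combination (95% interval -1.42 to 1.37), 0.14 for gemcitabine (-1.25 to 1.53) and 0.95 for pemetrexed (-0.57 to 2.48). Its second probe set gave 0.12, 0.35 and 0.86. These intervals leave room for a change of more than 1 log2 unit in either direction after the combination and gemcitabine.

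Mdm2, the feedback gene, had the tightest interval among the bright genes. It measured 7.93, 8.17 and 7.85 after the combination, 7.98, 8.20 and 8.29 after gemcitabine and 8.09 and 7.98 after pemetrexed, against 7.93 and 8.01 in untreated tumors. All 10 tumors lay between 7.85 and 8.29. The differences were 0.01 (95% interval -0.39 to 0.41), 0.19 (-0.21 to 0.58) and 0.06 (-0.37 to 0.50), so a rise of Mdm2 by more than 0.58 was outside all 3 intervals on this probe set. The other Mdm2 probe set gave 0.15, 0.26 and 0.27, with intervals that reached 0.88.

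Eda2r had the highest treated means relative to untreated tumors. It measured 6.73, 5.87 and 4.85 after the combination, 6.36, 6.29 and 4.83 after gemcitabine and 5.84 and 5.31 after pemetrexed, against 4.61 and 4.33 in untreated tumors. All 8 treated tumors were above both untreated tumors, and these 3 comparisons share those 2 untreated arrays. The differences were 1.35 (SE 0.71, limma adjusted p = 0.723), 1.36 (SE 0.71, limma adjusted p = 0.639) and 1.11 (SE 0.78, limma adjusted p = 1.0), and none passed. With limma array weights, which counted gemcitabine replicate 3 least in its group, the gemcitabine difference was 1.77 and passed (adjusted p = 0.00919), within a range of 0.00919 to 1.0 over 11 other settings. Under these weights 13.3% of all probe sets passed for gemcitabine, against 0.00888% without them. In untreated tumors Eda2r lay below the lowest array median.

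Zmat3 and Phlda3 lay lower after the combination without passing. Zmat3 measured 6.78, 7.40 and 6.92 after the combination, against 7.92 and 7.48 in untreated tumors, a difference of -0.66 (SE 0.32, limma adjusted p = 0.675). Phlda3 measured 5.54, 6.32 and 6.08 after the combination, against 7.67 and 6.29 in untreated tumors, a difference of -0.997 (SE 0.56, limma adjusted p = 0.748). Zmat3 did not overlap and Phlda3 did. Ccng1 on its brightest probe set averaged 7.78 after the combination and 8.25 in untreated tumors, also without overlap. The Btg2 probe sets averaged 9.04 and 8.14 after the combination, against 8.42 and 7.56 in untreated tumors. On both, every combination and pemetrexed tumor was above both untreated ones. After gemcitabine this held for the dimmer Btg2 probe set only. Eda2r and the dimmer Mdm2 probe set were also higher without overlap after the combination. Perp measured 3.74, 4.39 and 2.59 after gemcitabine, against 1.79 and 2.82 in untreated tumors, and its interval of -0.73 to 3.26 was the widest of the gemcitabine comparison.

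Groups that did not overlap numbered 6 of 17 probe sets for the combination, 4 for gemcitabine and 8 for pemetrexed, where 37.1%, 29.1% and 47.6% of all probe sets did not overlap with so few arrays. The combination was also set against each drug alone. No probe set of the 10 genes passed against gemcitabine or against pemetrexed, and none had an unadjusted p under 0.05. Of all probe sets 0% and 0.00666% passed, and 5.48% and 2.62% did at the unadjusted level. The groups did not overlap for 3 and 2 of the 17 probe sets, where 11.3% and 19.8% of all probe sets did not. The medians of the 17 differences were -0.17 and -0.12. Of all marker lists 1 held a called gene in a drug comparison: of 6 measured granule progenitor markers Gli1 rose after the combination against untreated tumors (difference 3.62, limma adjusted p = 0.0375). There 3 of the 6 had an unadjusted p under 0.05, and their median was 0.79, beside 0.03 over all genes. Of 10 proliferation markers, 4, 2 and 1 had an unadjusted limma p under 0.05 after the combination, gemcitabine and pemetrexed, where 8%, 8.8% and 4.81% of genes did. Their medians were 0.38, 0.43 and 0.43, beside 0.03, 0.05 and 0.05 over all genes, and 0 were called. The part of these markers in the values of the 10 genes was not tested.

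**Figure D3:**
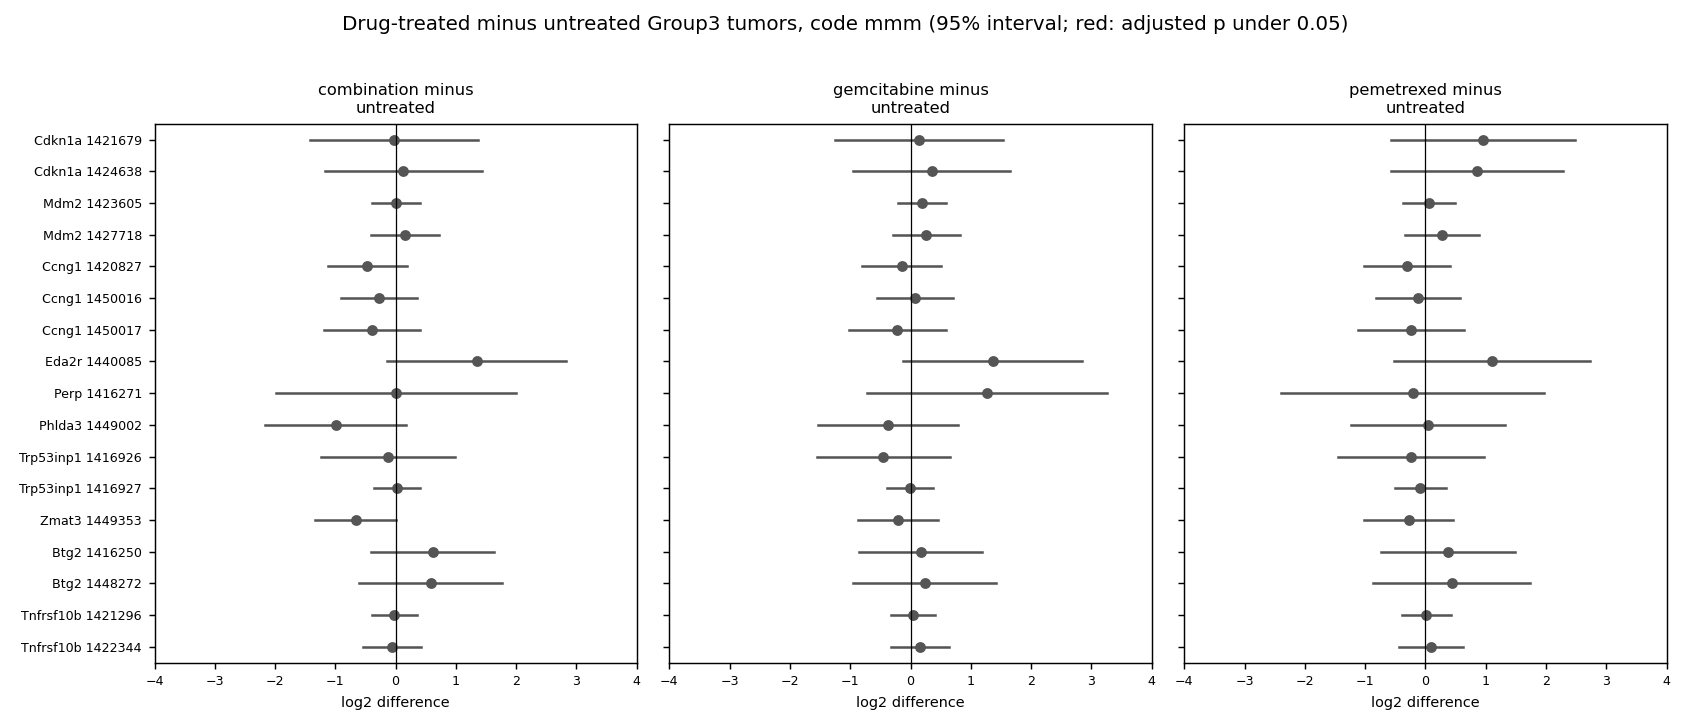
Difference in log2 intensity (horizontal axis) of the 17 probe sets (rows) between treated and untreated Group3 tumors of code mmm, with 95% intervals from limma. None is red, that is past 0.05. From left to right Eda2r lies at 1.35, 1.36 and 1.11, and the Cdkn1a probe sets lie at -0.03 and 0.12, 0.14 and 0.35, and 0.95 and 0.86.

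Over the pooled arrays the 10 genes showed little shared rise and fall. After each probe set was centred on its title code, the 45 gene pairs had a median Pearson r of 0.05 over the 26 arrays, from -0.42 for Perp and Trp53inp1 to 0.63 for Eda2r and Btg2. Of these, 4 pairs were above 0.5 and 0 below -0.5. No pairs of other genes were measured beside them, and the dim Tnfrsf10b is among the 10. Pooled values can hide unlike codes: Phlda3 and Trp53inp1 had an r of 0.07 pooled, -0.65 within dka and 0.66 within mmm. Probe sets of the same gene had an r of 0.98 for Cdkn1a, 0.91 for Btg2, 0.85 for Mdm2, 0.62 to 0.81 for Ccng1, 0.41 for Trp53inp1 and 0.07 for Tnfrsf10b. That of Mdm2 was 0.97 within dka and 0.42 within mmm. The arrays share groups and title codes, so these are descriptions. The genes most like Cdkn1a over the 26 arrays were Nrn1 (r = 0.79), Bhlhe41 (0.79) and Pitpnm2 (0.78). Those most like Mdm2 were Cplane1 (0.83), Ypel2 (0.82) and Neurod6 (0.82), those most like Eda2r were Ints7 (0.80), Clk4 (0.79) and Pcdh18 (0.76), and those most like Phlda3 were Ttc28 (0.86), Rnd2 (0.84) and Trhde (0.83).

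A wider list of 46 p53 targets, of which 42 were measured, moved in both directions. In Group3 against Trp53-/-, Cdkn2c-/- neurospheres 6 rose and 5 fell, where 13.1% of genes rose and 9.04% fell by the same test. Ephx1, a detoxifying epoxide hydrolase, measured 9.23, 10.37 and 10.27 in Group3 neurospheres, against 5.24, 4.35 and 5.04 in Trp53-/-, Cdkn2c-/- neurospheres (difference 5.08, limma adjusted p = 4.93e-08). Pmaip1, the proapoptotic protein Noxa, measured 3.28, 4.23 and 3.60 in Group3 neurospheres, against 7.80, 8.03 and 8.35 in Trp53-/-, Cdkn2c-/- neurospheres (difference -4.36, limma adjusted p = 0.000137). The first was bright where the second was dim. Plk2, a polo-like kinase, and the DNA polymerase gene Polk rose by 3.21 and 1.92, and Plk3 and Trp53i11 differed by -2.19 and -1.67. The list's median difference was 0.11, beside 0.08 over all genes.

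In tumors against neurospheres 3 genes of that list rose and 5 fell under dka, and 5 rose and 10 fell under mmm. By the same test 8.21% of genes rose and 9.12% fell under dka, and 9.99% rose and 11% fell under mmm. The list medians were -0.01 and -0.37, beside 0.0046 and -0.05 over all genes. Tigar, a regulator of glycolysis, rose by 1.32 in dka tumors, with Slc19a2 (1.17) and Aen (0.99). Ephx1 differed by -4.12 in dka and -2.32 in mmm, and Plk2 and Abhd4 by -3.29 and -2.31 in dka. In mmm tumors Trp53inp2, Casp8 and Trp53i11 rose by 1.92, 1.76 and 1.46, and Rap2b differed by -1.62. The calls of Trp53inp2 and Trp53i11 were lost without neurosphere replicate 7 (1.60 and 1.08, adjusted p = 0.102 and 0.0781), and those 2 and Rap2b did not pass when only mmm arrays were fitted (adjusted p = 0.0502, 0.0793 and 0.0584). Of 6 fits that left out an array, Trp53inp2 and Trp53i11 passed in 2 and Rap2b in 4 under mmm, and Aen passed in 4, Plk2 in 3 and Slc19a2 in 5 under dka. Without replicate 7 Casp8 gave 1.54, Ephx1 -2.68 and Rap2b -1.72, and all 3 passed. Ddb2, a nucleotide excision repair protein, measured 5.16 and 4.37 in mmm tumors, against 8.14, 7.57, 6.34 and 7.27 in neurospheres (difference -2.57, limma adjusted p = 0.000174), and differed by -2.59 (adjusted p = 0.000525) without neurosphere replicate 7. Leaving out tumor replicate 4 or 5 gave 5 or 3 calls in place of 15 in mmm, leaving out tumor replicate 2 gave 5 in place of 8 in dka, and without mmm neurosphere replicate 7 there were 10. No gene of the list passed limma in secondary against primary tumors or in any drug comparison. An unadjusted p under 0.05 was found for 5 of the 42 in secondary tumors, 0 after the combination, 2 after gemcitabine and 0 after pemetrexed, where 12.9%, 8%, 8.8% and 4.81% of genes did. With array weights 4 passed for gemcitabine and 2 in secondary tumors, where 13.3% and 4.51% of all probe sets passed.

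Among 16 measured family members and regulators of p53, Trp73 and Cdkn2a changed most between tumors and neurospheres. Trp73, the gene of the p53 relative p73, measured 8.13, 8.45 and 6.93 in dka tumors, against 3.42, 3.97 and 4.23 in dka neurospheres. Under mmm it measured 9.46 and 9.54 in tumors, against 3.95, 3.70, 4.23 and 4.49 in neurospheres. Every Group3 neurosphere array was below its array median and every tumor was far above, with differences of 3.96 (SE 0.65, limma adjusted p = 0.000383) in dka and 5.41 (SE 0.69, limma adjusted p = 3.29e-05) in mmm, or 5.54 (adjusted p = 9.67e-05) without neurosphere replicate 7. Trp73 was at 5.77, 7.57 and 5.31 in Trp53-/-, Cdkn2c-/- neurospheres, and the Group3 neurospheres differed from these by -2.35 (limma adjusted p = 0.0141). That difference did not pass without Trp53-/-, Cdkn2c-/- replicate 2 (-1.67, adjusted p = 0.101) or Group3 replicate 1 (-2.12, adjusted p = 0.0586), within a range of 0.00433 to 0.101. After treatment Trp73 measured 7.79, 9.03 and 6.53 with the combination, 9.94, 9.99 and 7.54 with gemcitabine and 9.37 and 9.04 with pemetrexed, and none of these differed from the untreated tumors by the test. A second Trp73 probe set averaged 4.58 in dka tumors and 3.90 in dka neurospheres, and 5.11 in mmm tumors and 3.94 in mmm neurospheres. The other p53 relative, Trp63, lay between 2.60 and 3.92 on all 4 probe sets and all arrays, below the array medians.

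Cdkn2a, whose product p19Arf restrains Mdm2, measured 7.29, 4.25 and 7.82 in dka tumors, against 10.17, 7.75 and 10.03 in neurospheres. Under mmm it measured 6.54 and 6.93 in tumors, against 10.14, 10.05, 8.76 and 8.25 in neurospheres. The differences were -2.87 (limma adjusted p = 0.0144) and -2.56 (limma adjusted p = 0.0320). The dka call was lost without tumor replicate 2 (-1.77, adjusted p = 0.0972) or without neurosphere replicate 1 or 3 (adjusted p = 0.0691 and 0.0685), within a range of 0.00472 to 0.0972. The mmm call was lost without either tumor (-2.37 and -2.76, adjusted p = 0.211 and 0.136) or neurosphere replicate 4 or 5 (adjusted p = 0.0668 and 0.0645), within a range of 0.00499 to 0.211, and it was -2.91 (adjusted p = 0.0239) without replicate 7. Secondary tumors had 9.15, 9.78 and 8.94, against 7.29, 4.25 and 7.82 in primary tumors, without overlap (difference 2.84, limma adjusted p = 0.0548). In that comparison 19.2% of all probe sets did not overlap. The difference passed in 4 of 11 other settings, within a range of 0.0114 to 0.247.

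Over the regulator list 2 genes rose and 4 fell in Group3 against Trp53-/-, Cdkn2c-/- neurospheres, 1 rose and 2 fell in dka tumors and 2 rose and 2 fell in mmm tumors. By the same test 13.1% of genes rose and 9.04% fell between the neurospheres, 8.21% and 9.12% in dka tumors and 9.99% and 11% in mmm tumors. Prkdc, the DNA-dependent protein kinase, differed by 1.08 between the neurospheres and by -0.84 and -0.82 in dka and mmm tumors against neurospheres. Trp53bp1, a DNA damage response protein, rose by 1.27 in mmm tumors. Without mmm neurosphere replicate 7 Prkdc gave -0.70 and Trp53bp1 1.21, and both passed. Ppp1r13l rose by 0.98 in Group3 neurospheres, where Ppp1r13b differed by -2.58 and Ppm1d, a phosphatase that is itself a p53 target, by -0.78. Ppp1r13b and Ppm1d lost the call in 5 of 6 fits that left out an array, and the list had 2 to 6 calls between the neurospheres in those fits. No regulator passed in secondary tumors or after a drug, where 4 of 16 in secondary tumors, 3 after the combination, 2 after gemcitabine and 0 after pemetrexed had an unadjusted p under 0.05. Over all genes 12.9%, 8%, 8.8% and 4.81% did. With array weights 4 regulators passed for gemcitabine and 1 in secondary tumors, against 13.3% and 4.51% of all probe sets.

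**Figure D4:**
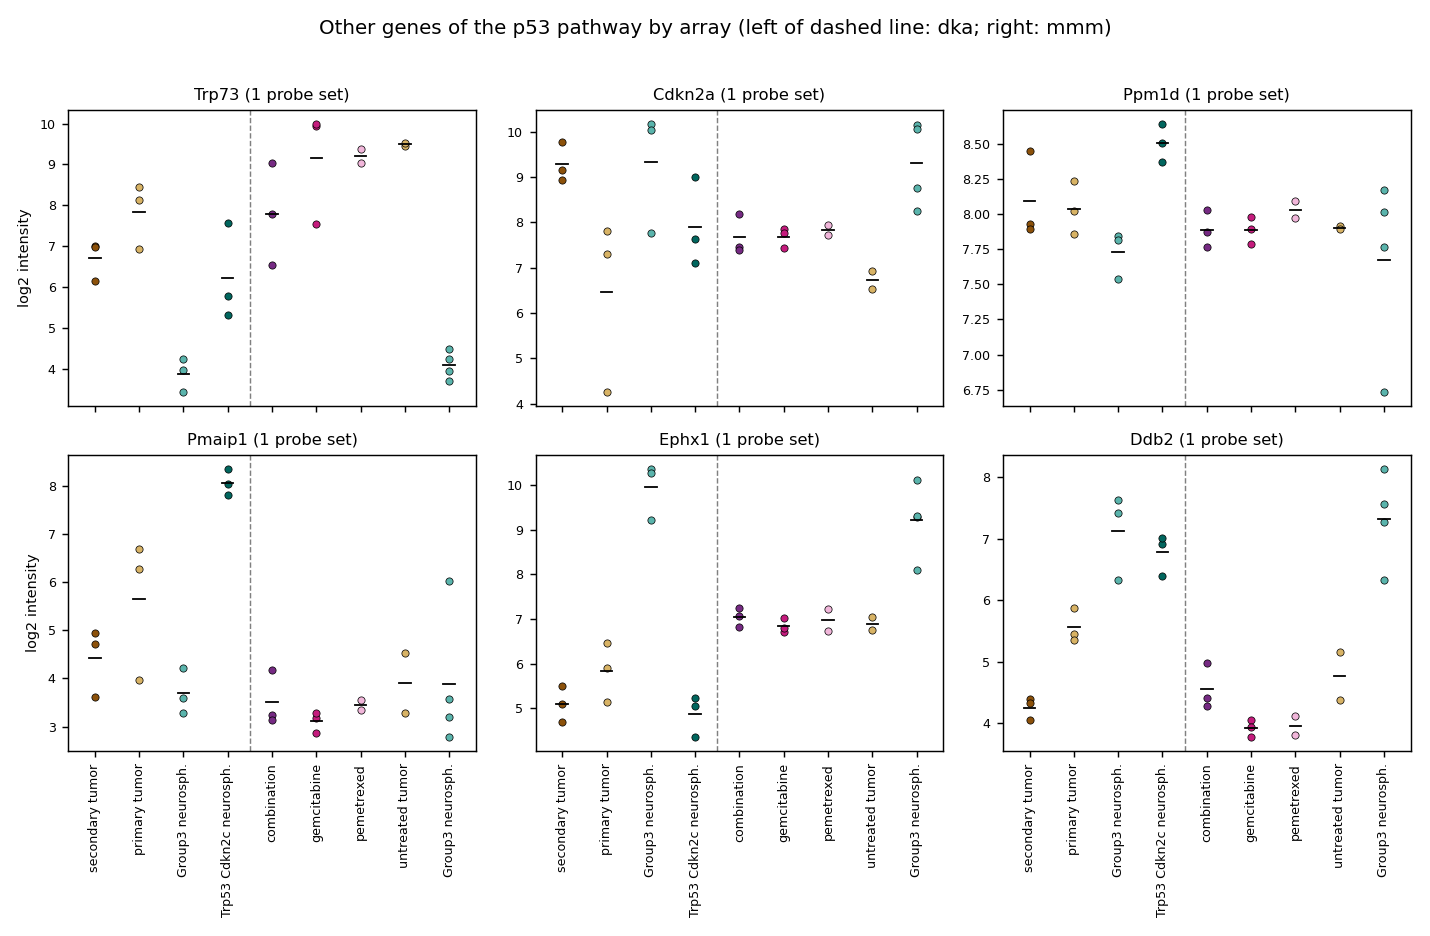
Log2 intensity of 6 further genes of the pathway (vertical axis) on every array, by group (horizontal axis), with title code dka left of the dashed line and mmm right of it, and short bars at group means. Trp73 is low in every Group3 neurosphere sample (3.42 to 4.49) and high in the tumors, Ephx1 is high in Group3 neurospheres, and Pmaip1 is highest in the 3 Trp53-/-, Cdkn2c-/- neurosphere samples.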

How the data were processed

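The deposited values are log2 intensities per probe set from 26 mouse Affymetrix HT MG-430 PM arrays. Per the submitters' processing notes they were made with RMA (no version given) and Partek 6.6. The labels name Trizol extraction and NuGEN amplification and labelling. The notes name no step that separates the scales of the 2 title codes, and whether values were adjusted after RMA is not given in the sources used here. Values were used as deposited. Of 45141 probe sets 104 controls were left out, and 28898 of the others have 1 gene symbol, 551 several and 15588 none. limma 3.58.1 in R 4.3.3 fitted 9 means, 1 per group within a title code, over all arrays, with Benjamini-Hochberg adjustment over 45037 probe sets, so every p named as adjusted is limma's, and SE is its moderated standard error. The script was tested on simulated data. Lists other than the 10 genes use the probe set of a gene that is brightest on average, and the text names up to 3 that rose and 3 that fell most, or the 2 largest where none passed. For Cdkn1a, Mdm2, Eda2r and Phlda3 the 3 most correlated genes are named. The genes and lists were chosen with earlier results of these data known. Whether arrays of a group stem from separate animals or cultures is not labelled, so p values measure only the spread between arrays, which may be technical. Replicate numbers follow deposit order. The small number of arrays limits precision. Figures were drawn with matplotlib 3.10.9 in Python 3.11.15.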

Additional observations from a re-analysis of the deposited data

Results flagged for a closer look

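The tumor against neurosphere difference of Perp differed between the title codes by -4.31 log2 units (mmm difference -1.98 minus dka difference 2.32; SE 1.25, limma adjusted p = 0.0446), which is why it is listed here. All 3 dka tumors were above all dka neurosphere samples, and the 2 mmm tumors lay within the range of the mmm neurosphere samples. Perp passed in 3 of 12 fits that left out an array. Title code and tumor set cannot be told apart, and the codes do not share a scale, so the size of this difference is not a fold change on 1 scale.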

How the results depend on the processing

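Each count of called probe sets among the 17 was recomputed with 1 probe set a gene, with only the title code's arrays in the fit (for the difference between codes, only untreated tumors and Group3 neurospheres), without dim probe sets (mean at or under the median of all), with quantile normalization, with array weights and without each array. In dka tumors against neurospheres the count of 0 became 1, 1, 2, 4 and 4 in that order (18.6%, 13.3%, 25.8%, 14.2% and 15.1% of all passed), in mmm the count of 1 became 2 without dim probe sets and 4 with array weights (26.9% and 30.1% of all), and for the difference between codes the count of 1 became 2, 0, 2 and 6 with 1 probe set a gene, the restricted fit, quantile normalization and array weights (9.17%, 4.64%, 6.67% and 11.6% of all). Array weights also gave 2 in secondary against primary tumors and 1 for gemcitabine (4.51% and 13.3% of all). Between the neurospheres the counts stayed at 2 to 4. Leaving out single arrays gave 2 to 4 between the neurospheres, 0 to 1 in dka tumors, 0 to 3 in mmm tumors, 0 to 1 in secondary tumors, 0 to 2 for the difference between codes and 0 in each drug comparison, of whose 55 settings 1 called any probe set. Among results of single probe sets, 796 of 825 kept their side of the threshold under the other settings (28 gained and 1 lost it) and 1014 of 1037 without single arrays (10 gained, 13 lost), with 0 reversed calls; the cause was not tested. The fit of drug comparisons on mmm tumors only was chosen after seeing the data and called none. No paired analysis was possible because the labels give no replicate numbers.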
